A study of Homo sapiens with 4 samples.

Results

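The mitochondrial complex I mRNAs are the 7 MT-ND genes of the mitochondrial chromosome (chrM), MT-ND1, MT-ND2, MT-ND3, MT-ND4L, MT-ND4, MT-ND5 and MT-ND6, taken by gene name from 62700 annotated genes and each read on its own coding strand. The libraries come from HEK293T, a human embryonic kidney line, transiently transfected with a pcDNA5 Flp-In plasmid for PR100-3xFLAG (PR100-FLAG), a proline-arginine dipeptide repeat protein of the C9orf72 repeat expansion with a triple FLAG tag, and induced with 150 ng/ml doxycycline for 24 h. Cells were irradiated once with UV light at 160 mJ/cm2, and iiCLIP, an immunoprecipitation of crosslinked protein with its RNA through the FLAG tag, gave 4 libraries of this 1 condition. SDS-PAGE was used to purify the complexes of the first 3 replicates, and beads those of replicate 4. Replicate 3 had a random barcode, which separates PCR copies, of 5 nt, and the others had 7 nt. Control libraries were not analysed here, and the labels do not say that the replicates were separate cultures, so p-values measure only the spread between these libraries.

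Complex I is the NADH dehydrogenase that opens the respiratory chain in the inner mitochondrial membrane. Most of its subunits are encoded in the nucleus, translated in the cytosol and imported, while the MT-ND genes supply core subunits of the membrane arm and are transcribed and translated inside mitochondria. Both strands of the mitochondrial genome are read into long polycistronic RNAs, from which tRNAs, rRNAs and mRNAs are cut. MT-ND6 is the only mRNA of the light-strand transcript, and all the other MT-ND mRNAs come from the heavy-strand transcript, which also carries both rRNAs.

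The value used throughout is the crosslinking event, a unique cDNA that stops next to the crosslinked nucleotide. The libraries held 125694 to 604816 events, and chrM took 1.82%, 5.94%, 1.30% and 6.52% of them in replicates 1 to 4. Of the 55343 chrM events, 93.7% lay in the 2 rRNAs. The 8 genes listed for the HEK293T line had 1 (KRT18) to 1426 (NEFM) events, 6 of them in every library, which is crosslinking and not a measure of expression. No RNA level was measured beside these libraries, so the abundance of an mRNA and the crosslinking per molecule cannot be told apart. Likewise, fewer cells with the construct and less crosslinked RNA per cell cannot be told apart.

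Events were found in all 7 MT-ND mRNAs of the PR100-FLAG libraries, and MT-ND4 had the largest total. The 7 genes, 6349 nt in all, held 121, 765, 38 and 317 events in replicates 1 to 4, or 1241 together. Scaled to a library total of 1000000 events (CPM), these were 362, 1265, 302 and 1765 CPM, a mean of 924 CPM ± 713 (SD, n = 4). Replicates 2 and 4 were both higher than replicates 1 and 3, and the same split was seen in the chrM share of the libraries.

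As a share of the chrM events, the MT-ND genes varied less. They took 1.99% (exact binomial 95% interval 1.65 to 2.37), 2.13% (1.98 to 2.29), 2.32% (1.65 to 3.17) and 2.71% (2.42 to 3.02) in replicates 1 to 4. These intervals cover counting error only. The interval of replicate 4 did not overlap those of replicates 1 and 2. Outside the rRNAs, the MT-ND genes held 35.4% of the chrM events.

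The following windows show where each mRNA was crosslinked most. Each is a stretch of 30 nt of RNA, 5′ to 3′, that holds 9 nt before and 20 nt after the position of that gene with the most events, or the first of them in a tie. They were read from GRCh38, with the crosslinked nucleotide in capitals. The plus strand carries the sequence of the heavy-strand mRNAs and the minus strand that of MT-ND6.
MT-ND1 at chrM:3720-3749, plus: aacaaucucAuaugaagucacccuagccau
MT-ND2 at chrM:5106-5135, plus: acuaccgcaUuccuacuacucaacuuaaac
MT-ND3 at chrM:10275-10304, plus: uuaccccuaCcaugagcccuacaaacaacu
MT-ND4L at chrM:10723-10752, plus: auggccuagAcuacguacauaaccuaaacc
MT-ND4 at chrM:11246-11275, plus: gcacuaauuUacacucacaacacccuaggc
MT-ND5 at chrM:13104-13133, plus: aaucuucuuAcucauccgcuuccacccccu
MT-ND6 at chrM:14142-14171, minus: uugagauugCucgggggaauagguuaugug
In MT-ND1 the positions 3750 and 4026 had 5 events each, as many as the one shown. In MT-ND2 the position shown had its 5 events from replicate 2 alone, at a sequence that is not unique, and position 5314, at unique sequence, had 4 from replicate 2 and 1 from replicate 4. The 6 heavy-strand windows are rich in adenine, cytosine and uracil, and the MT-ND6 window is rich in guanine and uracil. Over the whole genes, G made up 9.50% to 12.1% of the heavy-strand mRNAs and 35.6% of MT-ND6, where C made up only 7.05%.

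Among the antiporter-like subunits of the membrane arm, which move protons, MT-ND4 (ENSG00000198886.2, chrM 10760 to 12137, plus strand) had the most events. It held 40, 299, 4 and 107 events in replicates 1 to 4, which is 86.9, 359, 23.1 and 432 CPM per kb of gene and a mean of 225 CPM per kb ± 201 (SD, n = 4). Its leading position, at 496 nt from the gene start and shown above, had 11 events, of which 5, 3 and 3 came from replicates 2, 3 and 4. In 3 libraries MT-ND4 was the member with the most events, with 33.1%, 39.1% and 33.8% of the MT-ND events in replicates 1, 2 and 4, but with only 10.5% in replicate 3.

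MT-ND5 (ENSG00000198786.2, chrM 12337 to 14148, plus strand), the longest member at 1812 nt, held 31, 161, 22 and 79 events in replicates 1 to 4. Per length this was 51.2, 147, 96.6 and 243 CPM per kb, with a mean of 134 ± 82.1 (SD, n = 4). Replicate 3 differed from the others in where these events lay. All 13 events at the leading MT-ND5 position were from replicate 3, and without them MT-ND5 held 9 of 25 MT-ND events of that library, or 36.0%, in place of 57.9%. The 30 nt that start at this position also occur elsewhere in the genome.

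The third antiporter-like subunit, MT-ND2 (ENSG00000198763.3, chrM 4470 to 5511, plus strand), held 14, 100, 5 and 44 events, with a mean of 118 CPM per kb ± 96.2 (SD, n = 4). Its share of the MT-ND events was the most even of the 7 relative to its size, between 11.6% and 13.9% in every library.

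MT-ND1 (ENSG00000198888.2, chrM 3307 to 4262, plus strand), which lies next to the quinone-binding site, held 8, 55, 0 and 38 events and had a mean of 85.4 CPM per kb ± 99.1 (SD, n = 4). MT-ND3 (ENSG00000198840.2, chrM 10059 to 10404, plus strand), a small membrane subunit, held 1, 16, 0 and 13 events, with a mean of 73.6 CPM per kb ± 96.6 (SD, n = 4). The 0 of replicate 3 in both genes has an exact binomial 95% upper limit of 29.3 CPM at this depth, so it does not show absence. MT-ND4L (ENSG00000212907.2, chrM 10470 to 10766, plus strand), the smallest member, which overlaps the start of MT-ND4 by 7 nt, held 5, 20, 1 and 12 events, a mean of 103 CPM per kb ± 88.5 (SD, n = 4). Replicate 4 carried these means. Without it the mean fell from 81.6 to 38.3 CPM in MT-ND1, from 25.5 to 9.82 in MT-ND3 and from 30.7 to 18.7 in MT-ND4L. The 4 events in the overlap of MT-ND4L and MT-ND4 were counted for both genes and once in the sums.

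MT-ND6 (ENSG00000198695.2, chrM 14149 to 14673, minus strand), a membrane subunit and the only member on the light-strand transcript, held 22, 117, 6 and 25 events. This was 125, 368, 90.9 and 265 CPM per kb, a mean of 212 ± 128 (SD, n = 4), next to MT-ND4 in density at a much shorter length. Its leading position, 512 nt from the gene start and close to the 3′ end, had 15 events, 13 from replicate 2 and 2 from replicate 4.

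**Figure D1:**
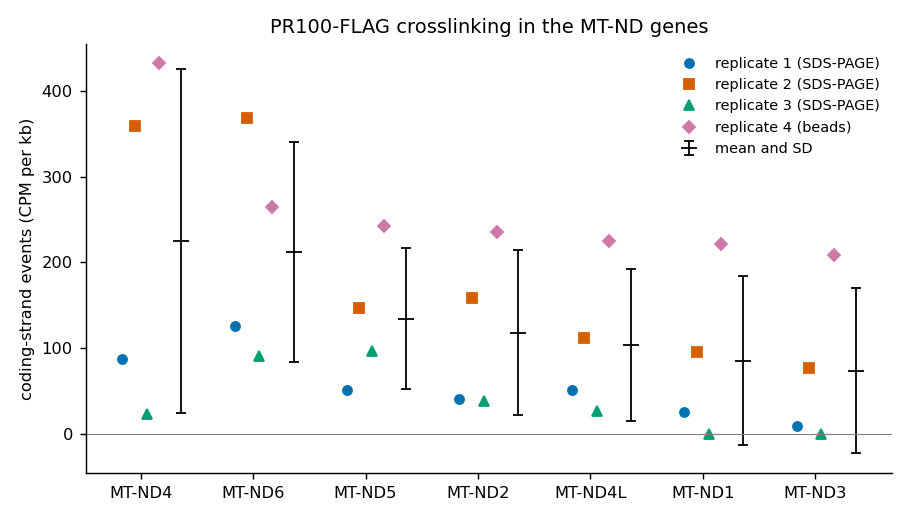
Coding-strand events in CPM per kb (vertical axis) for each MT-ND gene (horizontal axis, ordered by mean) in each of the 4 libraries, with the mean and SD in black. Replicates 2 and 4 lie above replicates 1 and 3 for every gene, and the spread between libraries is as wide as the distance between genes.

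Ordered by mean CPM per kb, the genes ran MT-ND4, MT-ND6, MT-ND5, MT-ND2, MT-ND4L, MT-ND1 and MT-ND3. An exact two-sided sign-flip permutation test over 4 libraries cannot go below p = 0.13, so no step in this order could pass it. The mean difference exceeded its SD in the steps from MT-ND4L to MT-ND1 and from MT-ND1 to MT-ND3 (11.8 CPM per kb ± 8.32) and was below its SD in the other 4. The most regular step was from MT-ND4L to MT-ND1, a difference of 18.0 CPM per kb ± 10.7 (SD), in this direction in 4 of 4 libraries (exact p = 0.13, Benjamini-Hochberg adjusted p = 0.5 over the 6 steps). MT-ND4 was above MT-ND6 in only 1 of 4 libraries, with a mean difference of 12.8 CPM per kb ± 106 (SD). Replicate 4 was the flattest library, from 209 CPM per kb for MT-ND3 to 432 for MT-ND4, while the same genes had 8.65 and 86.9 CPM per kb in replicate 1. Only 1 library was purified with beads, so the purification and the library cannot be told apart.

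Summed over the libraries, MT-ND4 had 450 events and MT-ND5 had 293, so 2 of the 7 genes reached 200 events. This is one part of the study's rule for a bound mRNA, whose other part, low binding in control libraries, was not analysed here. Of all annotated genes 1.22% reached 200 events, and of protein-coding genes 3.51%. By this sum MT-ND4 ranked 88, MT-ND5 282, MT-ND6 1003, MT-ND2 1094, MT-ND1 2338, MT-ND4L 6257 and MT-ND3 7260 among 20046 protein-coding genes. The sum rests on replicate 2. Without it no MT-ND gene reached 200 events, and MT-ND4 and MT-ND5 had 151 and 132. The sum also grows with length, so the short MT-ND3 and MT-ND4L, with 30 and 38 events, ranked low.

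Per kb of exon, all members stood near the top of the protein-coding genes. MT-ND4, with 327 events per kb, ranked 4 and MT-ND6, with 324, ranked 5. MT-ND5 (162 events per kb), MT-ND2 (156) and MT-ND4L (128) ranked 15, 17 and 18, while MT-ND1 (106) and MT-ND3 (86.7) ranked 31 and 38. The median of all protein-coding genes was 1.09 events per kb. For nuclear genes the exons of all annotated transcripts were merged, which can exceed the length of 1 mRNA and lower this density.

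The events were spread along the mRNAs and few positions were shared between libraries. Of 670 coding-strand positions with an event, 75 had one in 2 or more libraries, 8 in 3 and 0 in all 4. MT-ND4 held 33 of the shared positions, MT-ND6 14, MT-ND5 10, MT-ND1 9, MT-ND2 8, MT-ND4L 1 and MT-ND3 none. The libraries stacked their events differently. The 38 events of replicate 3 lay on 10 positions (3.8 events per position), against 1.46 in replicate 1, 2.06 in replicate 2 and 1.10 in replicate 4. Over whole libraries the same ratios were 1.47, 1.67, 2.16 and 1.15, so replicate 3, with the shorter random barcode and the lowest depth, was also the most stacked there. Whether barcode or depth has a part in this was not tested.

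A significant cluster on the coding strand, called by the authors on the pooled libraries, was found in 5 of 7 genes (MT-ND1, MT-ND2, MT-ND4, MT-ND5 and MT-ND6), against 11.3% of protein-coding genes. Each of the other 6 mitochondrial mRNAs also had clusters, 1 to 3 per mRNA, so this is not particular to the MT-ND genes. The 17 coding-strand clusters of the MT-ND genes held 655 of their events (52.8%). For 14 of them at least 1 library had its own cluster there, and for 4 of them 2 or more libraries did. MT-ND3 and MT-ND4L had none.

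MT-ND4 carried 6 of these clusters. The largest, from 11942 to 12081 near the 3′ end, held 105 events, of which 8, 89, 0 and 8 came from replicates 1 to 4. The cluster at 10823 to 10932, near the 5′ end, held 98 events (10, 66, 0 and 22). A narrower cluster of 58 nt at 11230 to 11287 held 86 events (3, 63, 4 and 16) and contains the leading MT-ND4 position. Replicate 2 gave most of the events of all 3, and replicate 3 had events only in the last of them.

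In MT-ND2 the cluster at 5276 to 5369 held 55 events (3, 39, 2 and 11), in the 3′ part of the gene. MT-ND1 had clusters of 21 and 22 events at 3720 to 3750 and 4024 to 4050. In MT-ND5 the 4 coding-strand clusters were small, the largest with 32 events at 14017 to 14038. MT-ND6 had clusters of 61 events at 14371 to 14415 (9, 43, 0 and 9) and 37 events at 14538 to 14546 (5, 26, 6 and 0), and another across its 3′ end that is described with the minus strand.

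**Figure D2:**
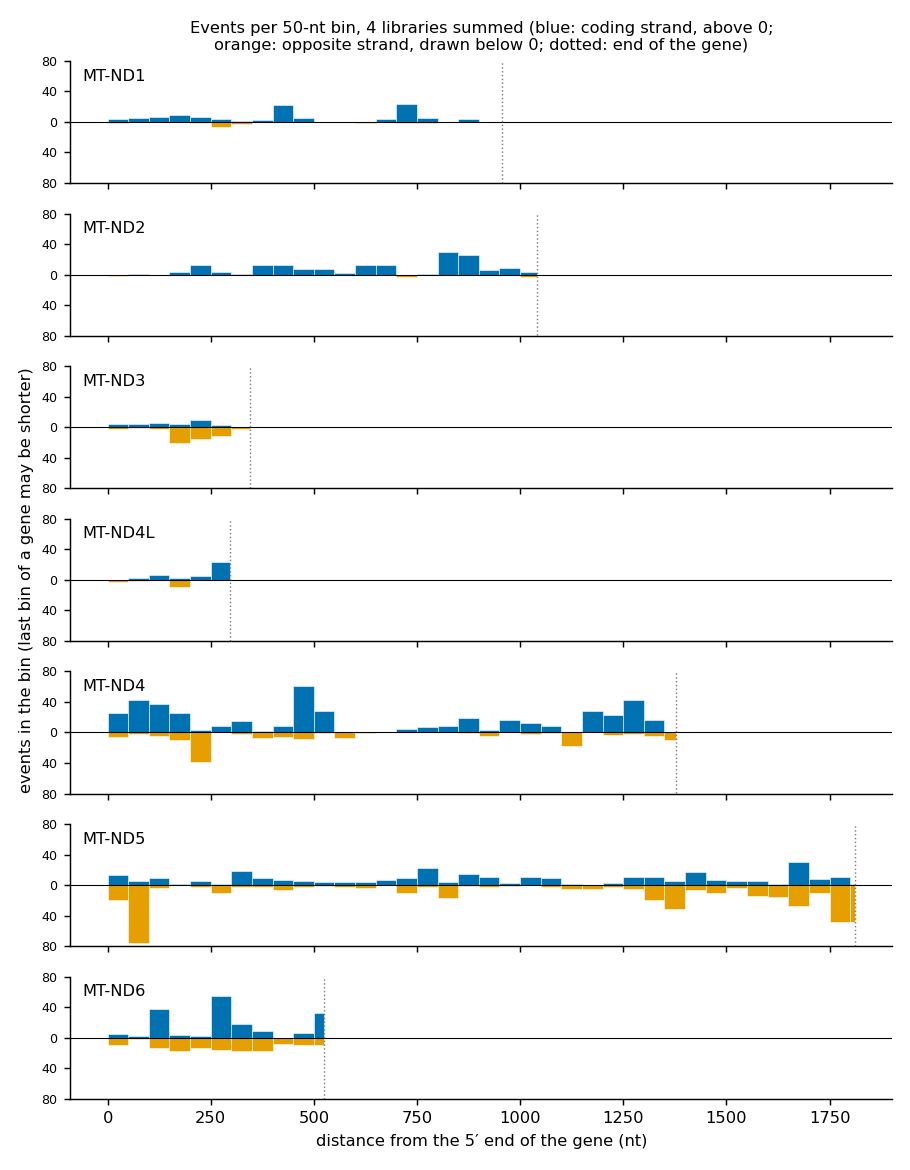
Events of the 4 libraries summed in bins of 50 nt along each MT-ND gene (horizontal axis, distance from the 5′ end of the gene in nt), with the coding strand in blue above 0 and the opposite strand in orange below 0. MT-ND4 shows 3 groups of bins on the coding strand, and MT-ND5 shows more events on the opposite strand than on its own, with the highest bins at both ends of the gene.

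Each gene was divided into 3 equal parts. The part at the 3′ end held 0.21 ± 0.22 (SD, n = 4) log2 more events than the part at the 5′ end, with 0.28, 0.44, 0.19 and -0.07 in replicates 1 to 4 (exact sign-flip permutation p = 0.25, adjusted p = 0.4375 over 7 tests). The genes did not share this. MT-ND2 had 22 events in its 5′ part and 74 in its 3′ part, and MT-ND4L 2 and 28, whereas MT-ND4 had 170 and 151, MT-ND6 48 and 47, and MT-ND1 36 in both.

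The coding strand was compared with the opposite strand of the same positions, which is also transcribed and so is not a background free of RNA. The opposite strand held 102, 493, 25 and 175 events in replicates 1 to 4. The log2 ratio of coding over opposite strand was 0.25, 0.63, 0.59 and 0.86, a mean of 0.58 ± 0.25 (SD), above 0 in 4 of 4 libraries (exact sign-flip permutation p = 0.13, adjusted p = 0.4375). The rRNAs on the same chromosome had 51834 events on their own strand and 9 on the other, so 0.0174% of rRNA events but 39.0% of MT-ND events lay on the opposite strand. The rRNA percent is taken over a far larger number of coding-strand events. Of the other mitochondrial mRNAs, MT-ATP6 had the lowest opposite share, with 220 coding-strand and 14 opposite events. MT-CYB had the highest, with 117 and 70.

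The ratio differed from gene to gene. MT-ND2 had 3.36 ± 0.49 (SD, n = 4) and MT-ND4L 1.48 ± 0.32 (SD, n = 4), both with more coding-strand events in 4 of 4 libraries. MT-ND1, with a mean of 1.83, and MT-ND4, with 0.85, 2.07, -0.29 and 1.37 in replicates 1 to 4, were higher on the coding strand in 3 libraries. MT-ND3 held 1, 16, 0 and 13 events on its own strand but 9, 38, 0 and 10 on the opposite strand. MT-ND5 held 31, 161, 22 and 79 against 50, 276, 20 and 76, so the opposite strand was well above the coding strand in replicates 1 and 2 and about level in replicates 3 and 4. MT-ND6 held 22, 117, 6 and 25 against 18, 83, 0 and 31, so it was higher on its own strand in 3 libraries and lower in replicate 4. The mean over all members fell from 0.58 to 0.37 without the leading positions and to 0.33 at unique positions, and it was 1.28 without MT-ND5, an alternative chosen after seeing the data. The leading positions were picked for their coding-strand events, so leaving them out favours a fall.

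**Figure D3:**
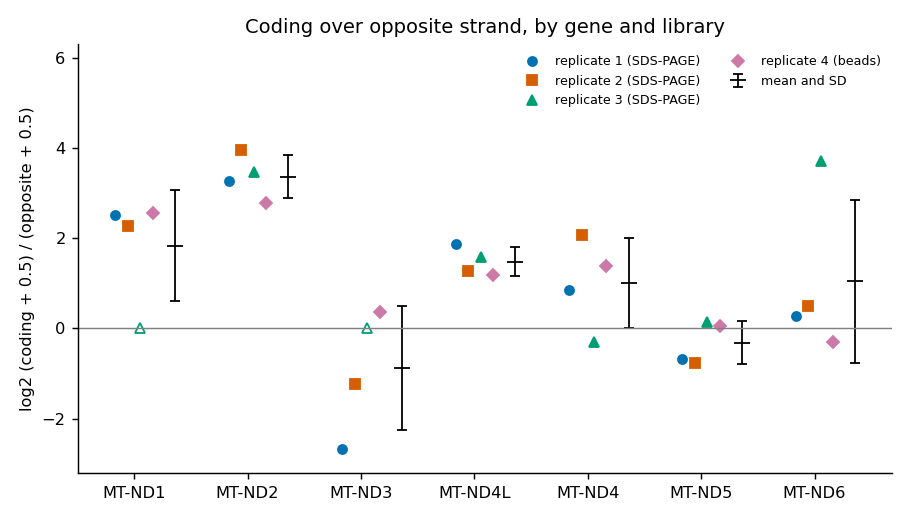
Log2 ratio of coding-strand to opposite-strand events, with 0.5 added to both (vertical axis), for each MT-ND gene (horizontal axis) and library, with mean and SD in black. Open triangles mark replicate 3 in MT-ND1 and MT-ND3, where neither strand had an event, and only MT-ND2 and MT-ND4L lie above 0 in all 4 libraries.

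The events opposite to the heavy-strand mRNAs lie on the minus strand, the strand of MT-ND6 itself. Along the direction of light-strand transcription, the minus strand held 61.3 events per kb opposite MT-CYB, 324 in MT-ND6, 233 opposite MT-ND5, 101 opposite MT-ND4, 47.1 opposite MT-ND4L and 165 opposite MT-ND3. Farther on it held 16.1 to 20.6 opposite the mRNAs from MT-CO3 to MT-CO1, 12.5 opposite MT-ND2 and 18.8 opposite MT-ND1, in regions where fewer positions are unique than opposite MT-ND3. Opposite MT-ND3 to MT-ND5 there were 82, 393, 25 and 132 events in replicates 1 to 4, and opposite MT-ND1 and MT-ND2 there were 2, 17, 0 and 12. The first region was higher per kb in every library, with 165 against 15.5 events per kb in the sum. This contrast was chosen after its values were seen and was not tested.

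Light-strand events were concentrated at a few places. The first 100 nt downstream of MT-ND6 held 13, 78, 3 and 10 events, or 1040 per kb. A cluster of 125 events at 14113 to 14163 crosses the end of MT-ND6, and its events were 12, 98, 3 and 12 in replicates 1 to 4. It was the cluster of the MT-ND genes that the most libraries, 3, also showed on their own. The minus strand of the 100 nt directly upstream of MT-ND6 had 0 events in every library, with 54.0% of these positions at unique sequence, but farther upstream, opposite MT-CYB, it held 7, 41, 3 and 19.

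The other concentrations lay opposite the first 100 nt of MT-ND5, with 9, 79, 0 and 7 events (950 per kb), and opposite MT-ND3. The windows of their leading minus-strand positions are shown because they are read from the same strand as MT-ND6, with the crosslinked nucleotide in capitals.
Opposite MT-ND5 at chrM:12378-12407, minus: acgagggugGuaaggauggggggaauuagg
Opposite MT-ND3 at chrM:10268-10297, minus: uguagggcuCaugguagggguaaaaggagg
The position opposite MT-ND5 had 15 events, all from replicate 2, in a cluster of 91 events at 12372 to 12426 to which replicate 2 gave 78. The position opposite MT-ND3 had 6 events, also from replicate 2, in a cluster of 51 events at 10210 to 10361 (9, 33, 0 and 9).

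Per length, MT-ND6 was compared with the other 6 MT-ND genes as 1 set. Its log2 ratio was 1.30, 1.002, 1.06 and -0.07 in replicates 1 to 4, a mean of 0.82 ± 0.61 (SD), above 0 in 3 of 4 libraries (exact sign-flip permutation p = 0.25, adjusted p = 0.4375). The 3 libraries purified by SDS-PAGE were above 0 and the only bead library was close to 0. The value of replicate 3 rests on 6 MT-ND6 events, all in the cluster of 9 nt at 14538 to 14546. When each position was counted once, the mean was 0.40 ± 0.63 (SD, n = 4). It was 1.26 ± 0.73 at unique positions, and also 1.26 ± 0.73 with the median of gene densities. Both of these gave an unadjusted exact sign-flip permutation p of 0.13. With 4 libraries this smallest p is reached only when all have the same sign. The bead library was thus above 0 in both settings, and its sign depended on the setting.

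Part of the mitochondrial sequence is copied in the nuclear genome, and a read shorter than a copied stretch has no unique place there. A 30-nt sequence was unique in the genome at 42.3% of the positions of MT-ND2, 63.6% of MT-ND1, 67.4% of MT-ND6, 77.4% of MT-ND4, 82.2% of MT-ND4L, 83.1% of MT-ND5 and 95.7% of MT-ND3. For MT-ND2, all of the other 57.7% were also on chromosome 1. Of the MT-ND events, 86.8% lay at the unique 71.6% of positions. Events were also kept at shared positions, 63 in MT-ND4, 46 in MT-ND2 and 37 in MT-ND5. MT-ND6 had 169 events at its 354 unique nt and 1 at its 171 shared nt.

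At unique positions alone, MT-ND6 was highest with 477 events per kb, then MT-ND4 with 363 and MT-ND2 with 265, which passed MT-ND5 (170). MT-ND1, MT-ND4L and MT-ND3 had 145, 143 and 87.6 events per kb. The annotated nuclear copies themselves held little. Of 217 MT-ND pseudogenes, 12 had an event, 35 events in all, with at most 8 in 1 copy (MTND2P28 on chromosome 1, named after its values were seen).

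The nucleotide at the crosslinked position was compared with the composition of the genes, each gene weighted by its events. U was found at 41.3%, 33.3%, 21.1% and 33.1% of the events in replicates 1 to 4, against 27.1% of the positions on average. The log2 ratio was 0.21 ± 0.40 (SD, n = 4), above 0 in 3 of 4 libraries (exact sign-flip permutation p = 0.5, adjusted p = 0.583). It was 0.26 ± 0.06 when each position was counted once and 0.37 ± 0.19 at unique positions. Both gave an exact sign-flip permutation p of 0.13, the smallest that 4 libraries allow. In replicate 3, A exceeded its share of the positions by 21.3 percentage points. Of the 38 MT-ND events of that library, 13 lay at 1 A, the leading MT-ND5 position.

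G was the least used base. It took 6.61%, 7.32%, 0% and 7.57% of the events, a mean of 5.38% ± 3.61 (SD, n = 4), against 14.0% of the positions. Its share was below the composition in 4 of 4 libraries, by 4.86 to 14.4 percentage points. A test over the 4 nucleotides gave G an exact sign-flip permutation p of 0.13 (adjusted p = 0.5). G was picked out after its values were seen, so this p carries no weight. In the G-rich MT-ND6, 22.4% of the events were at G, and 15.9% at C, which makes up 7.05% of that gene. The events at C lay mostly at 2 positions. Of the 170 MT-ND6 events, 15 were at the C at 14162, 13 of them from replicate 2, and 10 at the C at 14410.

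**Figure D4:**
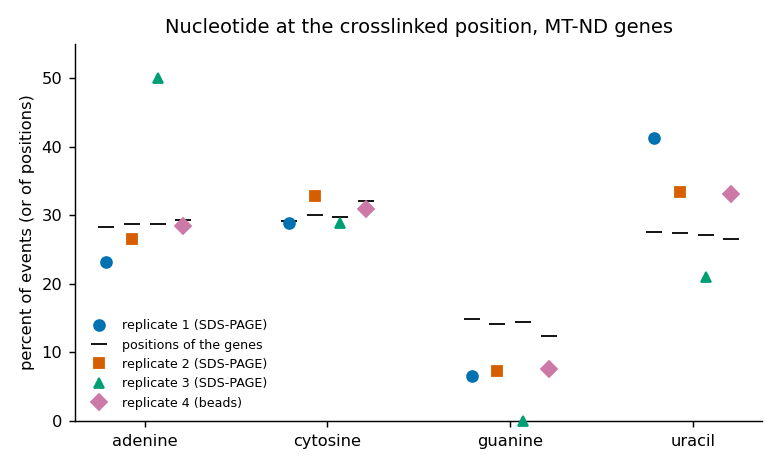
Percent of MT-ND events at each nucleotide (vertical axis) in each library (coloured symbols) beside the percent of positions with that nucleotide, weighted by the events of each gene (black dashes). Guanine lies below its dash in all 4 libraries, uracil above it in 3 and below it in replicate 3.

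The study names GAAGA as the enriched pentamer and shows the wider GANGA in single transcripts. GANGA was searched here with adenine, guanine or cytosine in the middle, on the coding strand. In the MT-ND mRNAs it was rare. MT-ND2 had GAAGA at 1 place, MT-ND5 had 1 and MT-ND6 had 2 copies with guanine in the middle, and the other 4 genes had none. None of the 21 windows around the 3 leading positions of each gene held it.

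Around each event, the stretch from 5 nt upstream to 30 nt downstream held the start of a GANGA for 0, 9, 0 and 6 events in replicates 1 to 4, or 0%, 1.18%, 0% and 1.89%. The same stretch around all positions held one in 3.40%, 2.97%, 3.77% and 2.06%. In the 2 libraries with such events the log2 ratio was -1.33 and -0.12 (exact sign-flip permutation p = 0.5, which is the smallest that 2 libraries allow). The share of events was below that of the positions in every library, but replicates 1 and 3, with 0 events, gave no log2 ratio and dropped out. With GAAGA alone, the pentamer that the study names, the sign turned to 0.98 on 1 library. Without MT-ND6, an alternative chosen after seeing the data, the mean was -0.02, so the log2 ratio settled no direction. At the 4 motif sites, MT-ND2 had 3 events, MT-ND5 had 6, and MT-ND6 had 6 at one site and 0 at the other. That no more motifs were found says only that these letters are not in the genes.

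The other mitochondrial mRNAs encode subunits of complexes III, IV and V. The MT-ND genes held 195 events per kb and the other 6 mRNAs 151 when the libraries were summed. By library the log2 ratio was 0.00, 0.57, -0.27 and 0.19, a mean of 0.13 ± 0.35 (SD), so the 2 sets did not differ beyond the spread between libraries (exact sign-flip permutation p = 0.625, adjusted p = 0.625). The sign turned without replicate 2 (-0.025), without MT-ND4 (-0.032) and with the median of gene densities (-0.076). Of these mRNAs MT-ATP8 (353 events per kb) and MT-ATP6 (323), both of ATP synthase, had densities like those of MT-ND4 and MT-ND6, and MT-CO2 of cytochrome oxidase had 158. The 22 tRNA genes together held 324 events per kb, and the rRNAs MT-RNR1 and MT-RNR2 held 1387 and 32400.

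The nuclear-encoded subunits of the same enzyme were crosslinked far less per length. The 37 genes held 598 exon events over 169.5 kb. This length merges the exons of all annotated transcripts, for example 19359 nt in NDUFA10. It can exceed the length of 1 mRNA and so lower the nuclear density, and its part in the ratio below was not tested. In replicates 1 to 4 they had 1.73, 2.91, 3.38 and 4.27 CPM per kb of exon, while the MT-ND genes had 57.1, 199, 47.6 and 278 CPM per kb. The log2 ratio was 5.04, 6.10, 3.82 and 6.02, a mean of 5.25 ± 1.07 (SD), or 38.0-fold, higher in 4 of 4 libraries (exact sign-flip permutation p = 0.13, adjusted p = 0.4375). None of the 37 reached the density of MT-ND3, the lowest member.

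**Figure D5:**
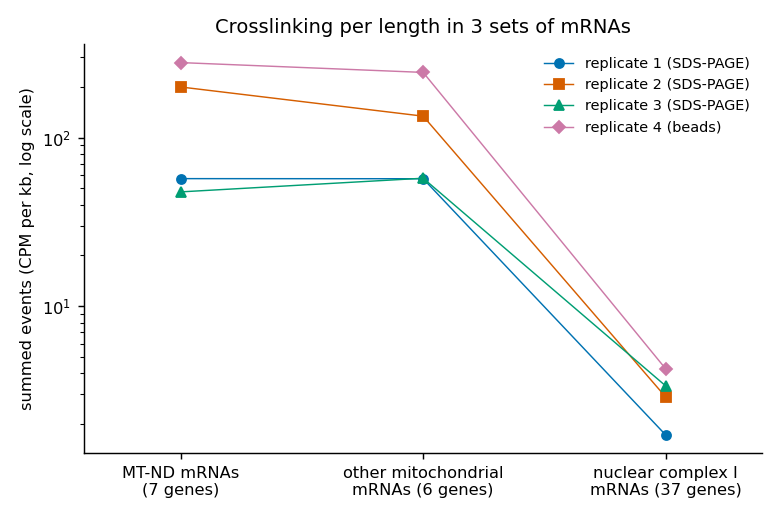
Summed events in CPM per kb (vertical axis, log scale) for the 7 MT-ND mRNAs, the other 6 mitochondrial mRNAs and the exons of 37 nuclear complex I mRNAs, with 1 line per library. The MT-ND and other mitochondrial mRNAs lie close together, and the nuclear complex I mRNAs lie at 1.73 to 4.27 CPM per kb in all libraries.

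Among the nuclear subunits NDUFB10 had 20.2 exon events per kb, NDUFA13 14.8 and NDUFA2 13.6, and the median was 3.34. NDUFB10 held 2, 10, 0 and 9 exon events in replicates 1 to 4, whereas NDUFA2 held 4, 4, 12 and 0. With introns included, only NDUFA10 of this list, picked out after its values were seen, passed 200 events, with 246. A cluster was present in 8 of the 37 genes.

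The 14 complex I assembly factors had a median of 2.64 exon events per kb, and 2 had a cluster. TIMMDC1 had 9.21, NDUFAF3 8.11 and NDUFAF8 7.47 events per kb, but NDUFAF3 had 11 of its 14 events in replicate 3 and NDUFAF8 had 8 of 10 in replicate 2. The 20 genes for mitochondrial RNA synthesis and processing had a median of 5.19 events per kb, and 6 had a cluster. Highest of these were FASTK (14.0), POLRMT, the mitochondrial RNA polymerase (11.1), and SLIRP (9.88). LRPPRC, the partner of SLIRP in keeping mitochondrial mRNAs stable, held 229 events in the whole gene and was picked out after its values were seen. No gene of either list reached the density of MT-ND3.

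The pattern of the summed MT-ND genes over the 4 libraries was compared with that of the 764 other genes with at least 200 events, by the root mean square difference of centred log2 CPM. The 16S rRNA MT-RNR2 was nearest, with a difference of 0.19 and 16650, 54911, 11679 and 57171 CPM in replicates 1 to 4. Next were SF3B2 (0.28), a splicing factor, EIF4G1 (0.32), a translation initiation factor, RPL3 (0.32), a ribosomal protein, and MT-RNR1 (0.38). MT-ATP6, the other mitochondrial mRNA with enough events, ranked 188 with 0.89, against a median of 1.10. These are descriptions over 4 libraries.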

How the data were processed

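The deposited position lists gave, for each nucleotide and strand, counts of unique cDNAs. The authors collapsed PCR duplicates by random barcode, mapped reads with STAR (version not given in the sources used here) to GRCh38 with Gencode 27, allowing 2 mismatches, and deposited clusters of significant positions per library and pooled. The pooled counts equalled the sum of the 4 libraries at all 784115 positions.

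Events were assigned with GENCODE 44 on the coding strand. Nuclear lists used the merged exons of all annotated transcripts of a gene. Ratios had 0.5 added where stated. Tests were exact two-sided sign-flip permutation tests of 1 value per library, Benjamini-Hochberg adjusted over 7 tests unless another number is given. Uniqueness was an exact match of 30 nt on either strand of the genome. Intervals were exact binomial (95%). The computations used scipy 1.17.1, pandas 2.3.3 and numpy 2.4.6 in Python 3.11.15, with plots by matplotlib 3.10.9.

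Named genes were the members, at most 3 genes per list by events per kb among those with 10 or more events, and the 5 most similar genes. NDUFA10, LRPPRC and MTND2P28 were named outside this rule, after their values were seen. Members and lists were chosen with earlier results of these data known. Of the alternatives, 55 were planned and 6 were added after seeing the data.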

Additional observations from a re-analysis of the deposited data

Results flagged for a closer look

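The share of MT-ND5 among the MT-ND events was 57.9% in replicate 3, far from the 25.6%, 21.0% and 24.9% of replicates 1, 2 and 4. Replicate 3 had 38 MT-ND events, and 13 of its 22 MT-ND5 events lay at 1 position. The log2 ratio of coding over opposite strand in MT-ND1 was 0.0 in replicate 3, where neither strand had an event, against 2.50, 2.27 and 2.57 in replicates 1, 2 and 4. These 2 were found among 29 sets of 4 library values that were searched for a library far from the others. Chance alone gives about 1 such library in 20 sets.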

How the results depend on the processing

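Apart from the values below, direction and call were kept under every alternative run (109 of 118 values), but with 4 libraries no test could pass a threshold of 5%, so a kept call says nothing of stability. The comparison with the other mitochondrial mRNAs turned to -0.076 with the median of gene densities and to -0.032 without MT-ND4, which was added after seeing the data, and leaving out 1 library gave -0.025 (without replicate 2) to 0.26. The GANGA ratio was 0.98 with GAAGA alone, which rests on 1 library. The number of MT-ND genes at the minimum was 1 when each position was counted once, 5 at a minimum of 100 events, 1 at 400, and 0 to 2 when 1 library was left out, with 0 without replicate 2. As a percent of the chrM events the mean was 2.29 in place of a CPM value. Leaving out 1 library moved the mean CPM of the MT-ND genes between 643 and 1131, MT-ND6 over the other members between 0.66 and 1.12, and the mitochondrial over nuclear ratio between 4.96 and 5.72, all log2 but the first. No paired analysis was possible because all libraries belong to 1 condition. The 38 MT-ND events of replicate 3 limit every value of that library.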
